A study of Mus musculus with 14 samples.

Results

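The genes described here were 10 protein-coding genes of 54532 in the count table of mouse liver: Tmprss4, Slc1a1, Scn2a, Clec2h, Smpd3, Ptgds, Akr1b7, Gipc2, Sdcbp2 and Dnah1. They were chosen by their counts: none or few in at least 1 wild-type group, and many more in liver of mice without a working Abcb11 gene. Comparisons between knockout and wild-type liver are therefore given below as a description without a test. All 10 genes passed the filter on low counts, which high counts in the knockout libraries alone satisfy.

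All mice were of the inbred strain C57BL/6J and 52 weeks old, and RNA of their livers was sequenced in 14 libraries. The groups were wild-type females (n = 2, numbered 2 and 3), liver without tumour (below, non-tumour liver) of Abcb11-/- females (n = 3), tumour tissue of Abcb11-/- females (n = 3), wild-type males (n = 3) and livers of Abcb11-/- males (n = 3). A wild-type female numbered 1 is not analysed here. The labels do not say whether the male knockout livers held tumours, how the allele was made, or which tumour came from which non-tumour liver. Separate animals are not named per library, so the p-values below measure the spread between these libraries.

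Abcb11 encodes the bile salt export pump, with which hepatocytes pass bile salts into bile, and its loss causes cholestasis. Bile acids retained in the cell activate the nuclear receptor FXR, which raises genes for export and detoxification. Liver held long under cholestasis can also take on features of bile duct and regenerating epithelium, and tumours can arise. The 10 genes have roles outside the classical work of the hepatocyte. Tmprss4, Slc1a1, Scn2a and Clec2h encode proteins of the cell surface. Smpd3, Ptgds and Akr1b7 encode enzymes of lipids and aldehydes, and Gipc2, Sdcbp2 and Dnah1 encode adaptors and a motor.

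Each library held 14745140 to 19480538 counts. Abcb11 itself checked the labels: it had 4333 and 10139 counts in wild-type females, 4504 to 5907 in wild-type males, 355 to 605 in the 6 female knockout libraries and 850 to 1832 in knockout males. The 3 wild-type male libraries stood apart from all others at low counts. They had 452, 459 and 540 protein-coding genes with 1 to 7 counts, against 1218 to 2123 in the other 11 libraries, and 7989 to 9206 protein-coding genes at 0, against 6516 to 7825. Of 763 protein-coding genes with 20 to 50 counts in both wild-type female libraries, 247 (32.4%) were at 0 in at least 1 wild-type male library and 17 (2.23%) in all 3. In non-tumour knockout females, tumours and knockout males 0, 0 and 3 of the 763 were at 0 in all 3 libraries. A 0 in wild-type males is therefore less informative than a 0 elsewhere, and no fold against that group is given. Tumour 1 leaned the same way, with the 1218 genes at 1 to 7 counts. Wild-type male 3 further held 5371 CPM of Ighm, an immunoglobulin gene, against 10.9 to 464 CPM elsewhere. Scores of daily clock genes (evening minus morning genes, mean log2 CPM) were −1.18 to −0.67 in wild-type males and 3.11 to 3.69 in knockout males. In wild-type females they were 2.18 and 1.92, and in non-tumour livers 1, 2 and 3 they were 0.18, 3.02 and 4.56.

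**Figure D1:**
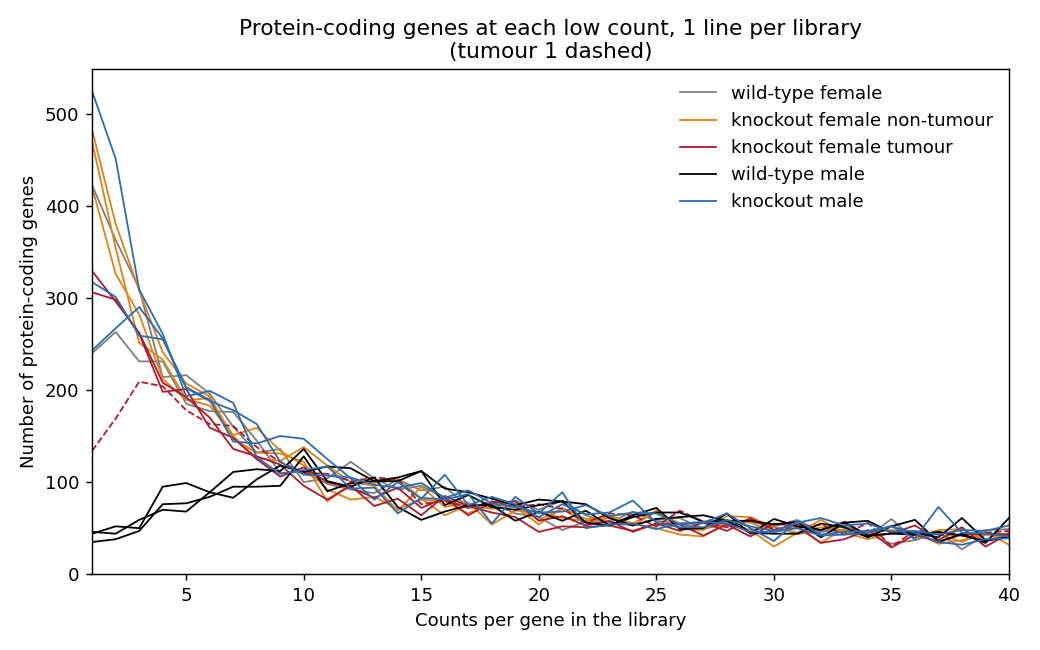
Number of protein-coding genes (vertical axis) at each count from 1 to 40 (horizontal axis), 1 line per library, coloured by group. The 3 wild-type male lines lie lowest at the left, with 452 to 540 genes at 1 to 7 counts in all, and meet the other lines from about 10 counts upward.

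Promoter sequences were available for 7 of the 10 genes in RefSeq's table for the GRCm38.p6 build, which covers 250 bases before and 50 bases after a transcript start site annotated by RefSeq. That site need not be the outer end of the gene coordinates given below: it lies 297 bases inside the gene for Ptgds, 86 for Slc1a1 and 28 for Akr1b7, 47.9 kb inside for one of the Scn2a windows, and within 2 bases of the gene's first base for the others. A set of 4 short motifs was searched on both strands in these 8 promoters, of which 2 belong to Scn2a. The pattern TGANTCA, a loose form of the AP-1 motif bound by Fos and Jun proteins, was found in 3 of the 8, those of Ptgds, Sdcbp2 and Clec2h, and in 7.81% of all 32851 promoters of the table. Its N takes any base, so matches other than TGACTCA and TGAGTCA are included in these counts. These 3 are shown because Ptgds and Clec2h had the widest gap between knockout males and females and Sdcbp2 had the highest level in tumours. Capitals mark the motif. The windows are chr2:25469700-25469999 on the minus strand for Ptgds, chr2:151572373-151572672 on the plus strand for Sdcbp2, and chr6:128662135-128662434 on the plus strand for Clec2h.
Ptgds: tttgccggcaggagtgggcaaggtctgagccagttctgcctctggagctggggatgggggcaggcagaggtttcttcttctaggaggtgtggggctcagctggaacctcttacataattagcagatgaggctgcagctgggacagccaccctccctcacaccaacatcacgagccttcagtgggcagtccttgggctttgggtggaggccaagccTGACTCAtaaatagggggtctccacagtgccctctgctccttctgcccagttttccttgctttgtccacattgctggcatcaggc
Sdcbp2: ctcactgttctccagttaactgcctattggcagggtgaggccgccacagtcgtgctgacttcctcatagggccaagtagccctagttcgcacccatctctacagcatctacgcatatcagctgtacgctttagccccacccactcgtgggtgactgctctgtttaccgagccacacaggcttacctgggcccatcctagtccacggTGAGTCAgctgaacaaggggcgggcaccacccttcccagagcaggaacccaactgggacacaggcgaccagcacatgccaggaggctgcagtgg
Clec2h: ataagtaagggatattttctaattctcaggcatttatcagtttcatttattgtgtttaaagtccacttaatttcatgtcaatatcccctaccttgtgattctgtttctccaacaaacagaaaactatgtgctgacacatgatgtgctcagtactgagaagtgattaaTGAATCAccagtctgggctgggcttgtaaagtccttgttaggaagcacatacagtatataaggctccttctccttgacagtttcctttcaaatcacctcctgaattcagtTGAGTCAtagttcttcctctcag

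Counting the RefSeq start site as 0, the motif began at −35 in Ptgds, at −44 in Sdcbp2 and at −83 and 27 in Clec2h. The Clec2h match at −83 read TGAATCA, a looser match than the TGAGTCA at 27. The Ptgds motif thus began 262 bases inside the gene as its coordinates are given below, upstream of a shorter transcript. The Clec2h window held 0 CpG dinucleotides, the Ptgds window 2 and the Sdcbp2 window 10, against a median of 7 over all promoters. Slc1a1 had 32, the most among the 7 genes. TATAAA was found in 1 of the 8 promoters, the inner Scn2a promoter at chr2:65668436-65668735, and in 13.6% of all. The antioxidant response element core TGACNNNGC was found in 0 of the 8 and in 12.4% of all, and the inverted repeat of nuclear receptor half-sites, to which FXR can bind, in 0 of the 8 and in 0.0274% of all. A match is a description of letters in this window. No promoter of these genes held more than 1 kind of motif.

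Among the genes of the cell surface, Tmprss4 (ENSMUSG00000032091, chromosome 9, 45172726 to 45204092, minus strand) encodes a membrane-anchored serine protease best known from carcinomas of the gut and pancreas. It had 5 and 0 counts in wild-type females 2 and 3, 122, 354 and 269 in non-tumour livers 1, 2 and 3, and 67, 106 and 298 in tumours 1, 2 and 3. Wild-type males had 0 counts in each library, and knockout males 459, 308 and 585. Every knockout library stood above every wild-type library. The summed, TMM-scaled level in non-tumour knockout liver was 94.5 times that in wild-type females, with an exact 95% interval of 40.3 to 292, and in tumours 60.99 times (25.95 to 189). These intervals, here and below, cover counting error only.

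Slc1a1 (ENSMUSG00000024935, chromosome 19, 28835049 to 28913960, plus strand) encodes a carrier that brings glutamate and cysteine into the cell, known from kidney, gut and neurons. Counts were 2 and 4 in wild-type females, 144, 109 and 168 in non-tumour livers and 112, 77 and 117 in tumours. They were 0 in each wild-type male and 184, 163 and 301 in knockout males. Slc1a1 was the most even of the 10 genes within non-tumour livers, where the highest library was 1.17 times the lowest in CPM. The ratio to wild-type females was 44.5 (20.3 to 122) in non-tumour liver and 33.0 (14.998 to 90.7) in tumours. The gene 4430402I18Rik overlaps it on the other strand and had at most 103 counts in a library.

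Scn2a (ENSMUSG00000075318, chromosome 2, 65620771 to 65767447, plus strand) encodes the pore of a voltage-gated sodium channel of brain neurons. It had 4 and 0 counts in wild-type females, 119, 141 and 238 in non-tumour livers and 34, 14 and 94 in tumours. Wild-type males had 0 counts, and knockout males 105, 132 and 167. All 3 tumours lay below all 3 non-tumour livers, while all 6 lay above both wild-type females. Relative to wild-type females the ratio was 78.9 (30.6 to 291) in non-tumour liver and 23.0 (8.78 to 85.5) in tumours. Scn2a lies 3.47 Mb from Abcb11 on chromosome 2, and Ptgds and Sdcbp2 lie on the same chromosome 43.8 and 82.2 Mb away.

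Clec2h (ENSMUSG00000030364, chromosome 6, 128662385 to 128677374, plus strand) encodes a C-type lectin-like membrane protein of a family whose members are ligands of Klrb1 receptors on natural killer cells. Counts were 1 and 10 in wild-type females, 1, 12 and 67 in non-tumour livers and 0, 5 and 19 in tumours, so these groups overlapped. It had 0 counts in wild-type males and 531, 407 and 1134 in knockout males. The knockout males stood at 44.5 ± 17.7 CPM (SD, n = 3), non-tumour females at 1.26 ± 1.56 CPM (n = 3). Clec2h was thus high in knockout males and near the wild-type female level in knockout females, with a ratio to wild type of 4.61 (2.44 to 9.61) in non-tumour liver, carried by the 67 counts of liver 3, and 1.41 (0.666 to 3.19) in tumours.

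Among the enzymes, Smpd3 (ENSMUSG00000031906, chromosome 8, 106252548 to 106337988, minus strand) encodes neutral sphingomyelinase 2, which cleaves sphingomyelin to ceramide. It had 3 and 2 counts in wild-type females, 531, 185 and 485 in non-tumour livers and 316, 343 and 626 in tumours. Wild-type males had 0, 0 and 23 counts and knockout males 329, 310 and 574. Its 9 knockout libraries lay within 10.98 to 32.5 CPM. Against wild-type females, the ratio, 152 (65.1 to 470) in non-tumour liver and 166 (71.1 to 513) in tumours, was the highest point value of the 10 genes in both groups, with intervals that overlap those of several others. Prmt7 overlaps it on the other strand, with up to 369 counts.

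Ptgds (ENSMUSG00000015090, chromosome 2, 25466709 to 25470046, minus strand) encodes the lipocalin-type prostaglandin D synthase, a secreted enzyme of brain and testis. Wild-type females had 8 and 34 counts, non-tumour livers 42, 87 and 38, and tumours 65, 60 and 6. Wild-type males had 0 counts, and knockout males 2166, 2156 and 10503. Levels in knockout males were 161, 158 and 594 CPM, against at most 5.16 CPM in any female library. Among females the ratio to wild type was 2.52 (1.79 to 3.63) in non-tumour liver and 2.02 (1.42 to 2.93) in tumours, and tumour 3 lay below both wild-type females. No 75-base stretch of its transcript occurs in a transcript of another gene.

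Akr1b7 (ENSMUSG00000052131, chromosome 6, 34412334 to 34423142, plus strand) encodes an aldose reductase-like enzyme that reduces lipid aldehydes and is a known target of FXR. Counts were 6 and 5 in wild-type females, 447, 251 and 1302 in non-tumour livers and 304, 143 and 65 in tumours. They were 0 in wild-type males and 75, 47 and 92 in knockout males. Levels were 32.4 ± 23.3 CPM in non-tumour females, 9.64 ± 8.12 CPM in tumours and 4.74 ± 1.14 CPM in knockout males (SD, n = 3 each). The ratio to wild-type females was 115 (64.3 to 231), 30.1 (16.7 to 60.8) and 15.97 (8.75 to 32.5) in these 3 groups.

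Among the adaptors and the motor, Gipc2 (ENSMUSG00000039131, chromosome 3, 152093533 to 152166230, minus strand) encodes a PDZ-domain adaptor for membrane receptors. It had 11 and 3 counts in wild-type females, 299, 133 and 195 in non-tumour livers and 272, 463 and 551 in tumours. Wild-type males had 0 counts and knockout males 136, 262 and 240. The tumours were all above the non-tumour livers in CPM (16.8 to 27.9 against 7.89 to 15.7). Relative to wild-type females the ratio was 28.4 (16.8 to 52.2) in non-tumour liver and 59.5 (35.3 to 109) in tumours.

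Sdcbp2 (ENSMUSG00000027456, chromosome 2, 151572622 to 151590005, plus strand) encodes syntenin-2, a PDZ protein that binds phosphoinositides. Counts were 2 and 6 in wild-type females, 149, 87 and 48 in non-tumour livers and 180, 571 and 741 in tumours. Wild-type males had 15, 0 and 37 counts and knockout males 175, 164 and 244. Levels were 25.3 ± 13.3 CPM in tumours, 5.05 ± 2.83 CPM in non-tumour females and 12.9 ± 0.908 CPM in knockout males (SD, n = 3 each). Against wild-type females, the ratio was 22.5 (11.3 to 52.6) in non-tumour liver and 121 (61.1 to 280) in tumours.

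Dnah1 (ENSMUSG00000019027, chromosome 14, 31260375 to 31323896, minus strand) encodes a dynein heavy chain of the axoneme, the motor of cilia and sperm tails. It had 0 and 3 counts in wild-type females, 112, 100 and 174 in non-tumour livers and 110, 104 and 189 in tumours. Wild-type males had 19, 0 and 0 counts and knockout males 320, 230 and 349. Knockout males stood at 20.1 ± 3.51 CPM, above the 6.56 ± 1.13 CPM of non-tumour females (SD, n = 3 each). The ratio to wild-type females was 81.6 (27.7 to 397) in non-tumour liver and 87.0 (29.6 to 424) in tumours, with 3 wild-type counts behind it.

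**Figure D2:**
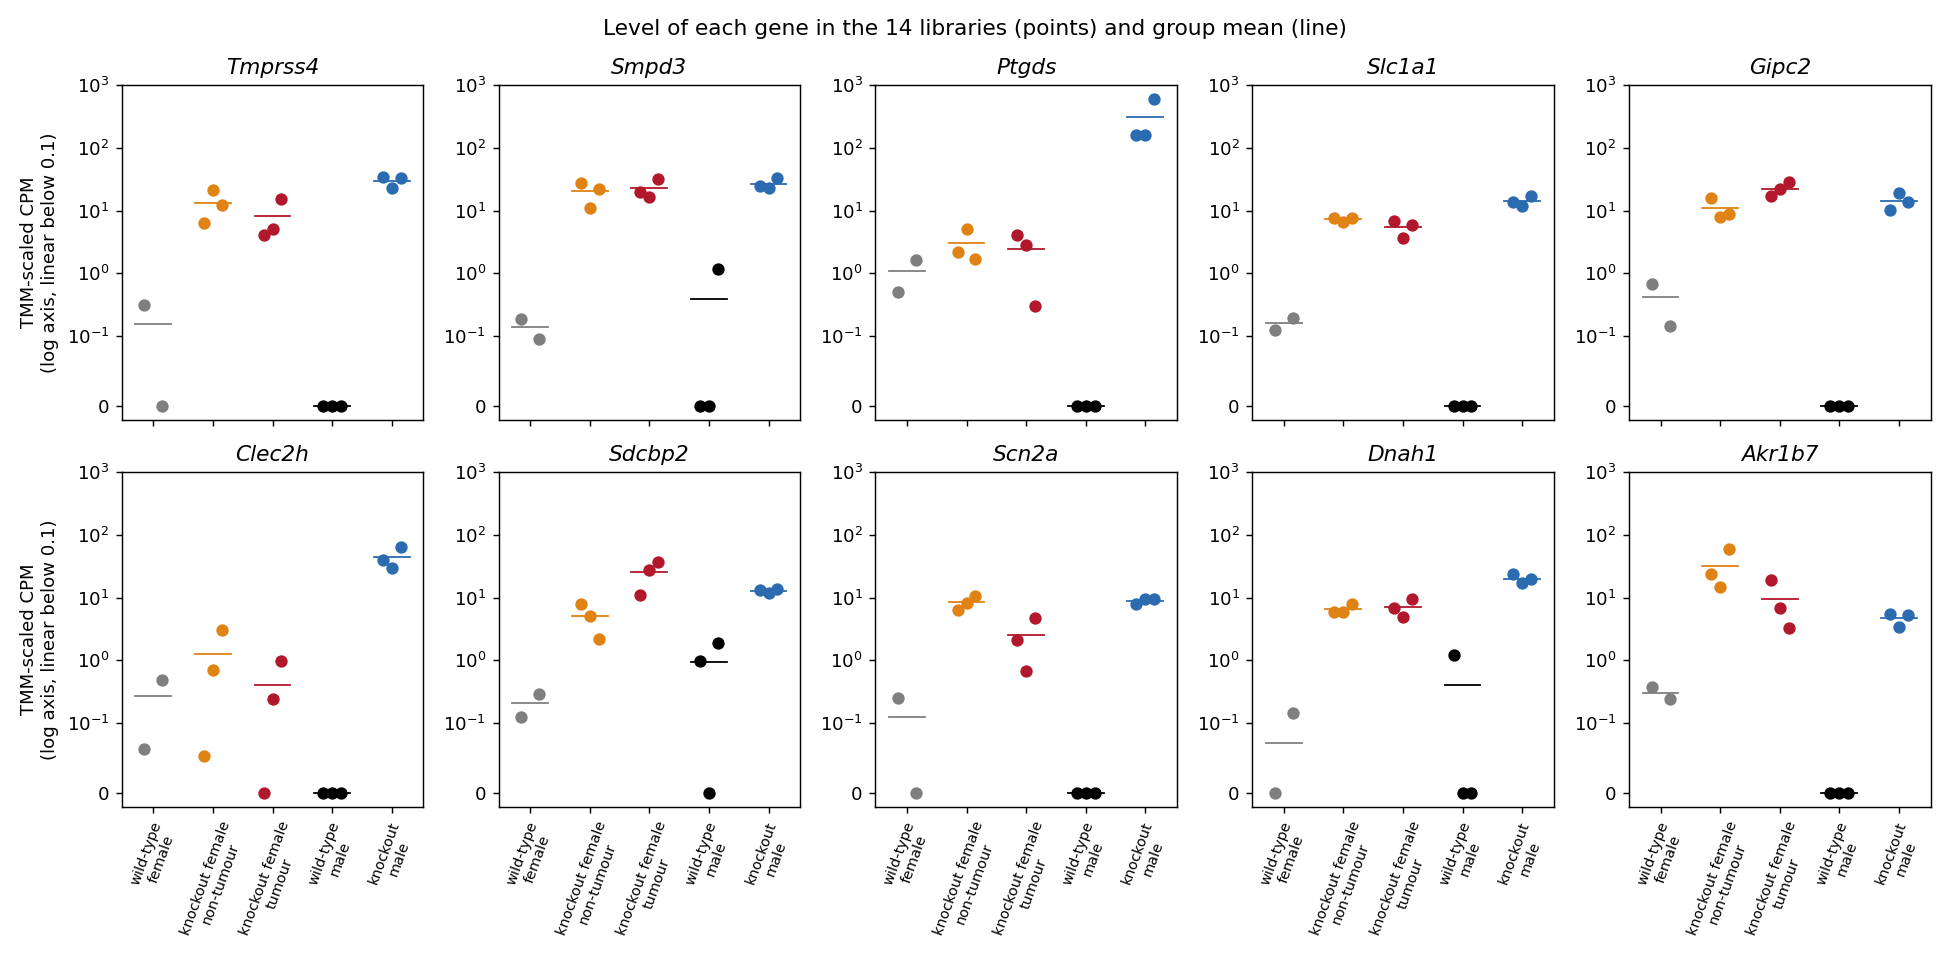
TMM-scaled CPM (vertical axis, logarithmic above 0.1 and linear below) of each of the 10 genes in the 5 groups (horizontal axis); points are libraries and lines are group means. Ptgds and Clec2h reach 158 to 594 and 29.7 to 64.1 CPM in knockout males and stay at or under 5.16 and 3.03 CPM in every female library.

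Across the 10 genes, 9 had every non-tumour knockout library above both wild-type females (Clec2h overlapped), where 23.2% of the 17874 tested genes did. In tumours it was 8 (Ptgds and Clec2h overlapped), beside 24.8% of all tested genes. In males all 10 had every knockout library above every wild-type library, beside 23.1% of all tested genes, and all 10 had every knockout male library above both wild-type females, beside 20.8%. These counts follow from how the genes were chosen. In bulk liver, more cells of a type that expresses a gene and more RNA per cell cannot be told apart.

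Genes near 0 in wild type and high in knockout liver were counted over the whole table in each sex. At most 3 counts in each wild-type library and at least 30 in each knockout library were found for 3 genes in females, namely Smpd3, Dnah1 and Gm3776, and for 3 genes with the genotypes exchanged. In males the same limits gave 44 genes, 27 of them protein-coding and 7 of the 10 described here, against 5 with the genotypes exchanged. The presence of the 10 genes in these counts follows from how they were chosen. Of these 44, the highest in their lowest knockout library were Ptgds (158 CPM), Clec2h (29.7 CPM), Tmprss4 (22.5 CPM), Gm7463 (19.7 CPM), Slc51b (18.1 CPM), Slc1a1 (11.9 CPM), Gipc2 (10.1 CPM) and Gm6135 (9.72 CPM). No gene met the limits in both sexes. The male count shares the low-count deficit of the wild-type male libraries, whose part in it was not tested.

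The male zeros were also set beside genes of like abundance in knockout males, as a description. Among 4188 protein-coding genes with 100 to 600 counts in each knockout male library, 5 (0.119%) were at 0 in all 3 wild-type males. These 5 were Slc51b, Scn2a, Slc1a1, Tmprss4 and Gipc2, of which 4, all but Slc51b, are among the 10 genes and were chosen for this pattern. In the reverse direction, 0 of 3635 genes with 100 to 600 counts in each wild-type male were at 0 in all knockout males. The wild-type females, which did not have the low-count deficit, had 0 to 11 counts of these 5 genes.

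Compared per transcript length with the authors' FPKM, the order of the 10 genes differed by group. In non-tumour females Akr1b7 was highest at 23.6 ± 16.9 FPKM and Tmprss4 next at 4.78 ± 2.70 FPKM, ahead of Smpd3, Sdcbp2 and Gipc2, which lay between 2.63 and 3.61 FPKM with overlapping spreads. In tumours Sdcbp2 was highest at 17.1 ± 9.03 FPKM, followed by Akr1b7 at 7.08 ± 5.91 and Gipc2 at 5.49 ± 1.38 FPKM. In knockout males Ptgds stood at 168 ± 134 FPKM, above Clec2h at 15.1 ± 5.62 and Tmprss4 at 10.7 ± 2.25 FPKM, whose spreads overlapped. Scn2a, at 0.186 to 0.651 FPKM, and Dnah1, at 0.470 to 1.43 FPKM, were low in all 3 knockout groups. SDs are over 3 libraries.

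**Figure D3:**
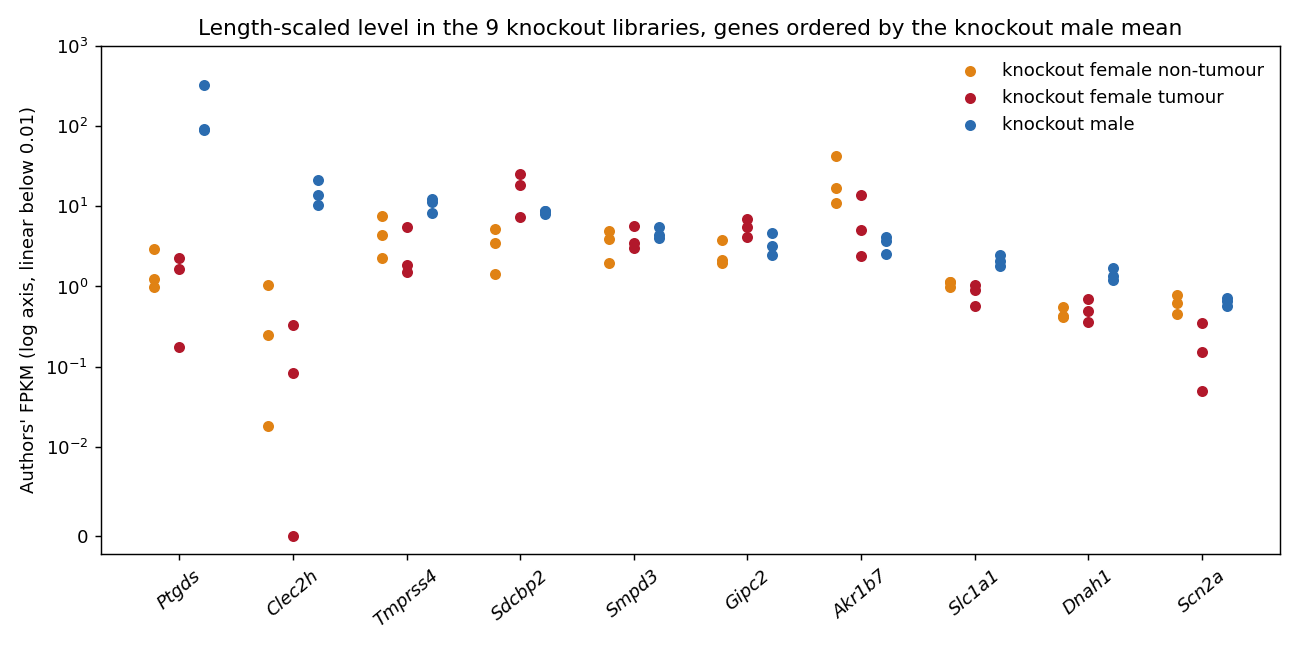
The authors' FPKM (vertical axis, logarithmic above 0.01 and linear below) of the 10 genes in the 9 knockout libraries, coloured by group, with genes ordered by their mean in knockout males. Ptgds leads in males at 168 FPKM on average, Akr1b7 in non-tumour females at 23.6 and Sdcbp2 in tumours at 17.1.

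Tumour and non-tumour tissue of knockout females were then compared, a contrast that did not choose the genes, although choosing genes for high knockout levels can favour whichever group was high. Sdcbp2 and Gipc2 were higher in every tumour than in every non-tumour liver, beside 6.38% of all tested genes, and Scn2a was lower in every tumour, beside 7.64%. None of the 10 passed edgeR's quasi-likelihood test after Benjamini-Hochberg adjustment, nor did any of the 17874 genes (0%), of which 1217 had an unadjusted p under 0.05. DESeq2 called 27 genes and 0 of the 10, and without tumour 1 edgeR called 42 genes and 0 of the 10. A fit with the replicate number as a block, shared by the libraries of all groups, called 1 gene and 0 of the 10. It is not a test of the tumour and non-tumour pairs alone, since wild-type and male libraries were given the same number effects. In the unpaired fit without the filter on low counts, edgeR called 338 genes, among them Sdcbp2, Akr1b7 and Clec2h. On simulated data the test recovered 50% of genes changed 4-fold and 100% of those changed 16-fold in this comparison. The simulation gave all genes the same spread and left out the low-count deficit of wild-type males. Its shares need not hold for more uneven genes. Ptgds differed 13.2-fold in CPM within tumours and Clec2h 57.7-fold within non-tumour livers.

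The largest difference among the 10 was that of Sdcbp2, at 2.33 ± 0.71 on the log2 scale (SE, edgeR adjusted p = 0.665), and it was positive for the numbers 1, 2 and 3, at 0.51, 2.40 and 4.11. Gipc2 differed by 1.05 ± 0.41 (edgeR adjusted p = 0.671), at 0.10, 1.49 and 1.66. Both genes were thus closest between the libraries numbered 1. Akr1b7 was lower by −1.75 ± 0.61 (edgeR adjusted p = 0.665), at −0.32, −1.12 and −4.16, and its tumour and non-tumour values overlapped. Scn2a was lower by −1.75 ± 0.67 (edgeR adjusted p = 0.666), at −1.57, −3.64 and −1.18. Clec2h, Tmprss4, Slc1a1 and Ptgds had values of −1.63 to −0.34, and Smpd3 and Dnah1 of 0.15 and 0.12. The median over the 10 genes was −0.36, with 4 above and 6 below 0, and that of all tested genes was −0.01. Tumour 3 was the highest tumour for 7 of the 10 genes.

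Knockout males were compared with non-tumour knockout females, which also served as the reference for the tumours. The labels do not say whether the male livers held tumours, so sex and tumour state cannot be told apart in this comparison. The genes had been chosen in part for high counts in knockout males, Ptgds and Clec2h chiefly so, and this choice favours higher values in males. The values below, the call of Ptgds included, are therefore no independent support for a difference between the sexes. Ptgds was higher in males, with a log2 fold change of 6.66 ± 1.02 (edgeR adjusted p = 0.0320), in 3 of 3 males above all 3 females. It was the 1 called gene of the 10, where edgeR called 70 of 17874 genes (0.392%), 0.207% higher and 0.185% lower. The call was lost when any of non-tumour 1, 2 or 3, knockout male 1 or knockout male 3 was left out, and it held without knockout male 2, with values of 5.73 to 7.27. Clec2h was higher by 5.10 ± 1.14 (edgeR adjusted p = 0.121) and Akr1b7 lower by −2.77 ± 0.64 (edgeR adjusted p = 0.110), both without overlap between the groups. DESeq2 called 457 genes in this comparison, among them Ptgds, Clec2h and Akr1b7. Without the filter edgeR called 700 genes, 6 of the 10 among them. A difference between the sexes in wild type could not be read for these genes, because of the low-count deficit of the wild-type males.

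Without overlap, 6 of the 10 genes were higher in knockout males, namely Tmprss4, Ptgds, Slc1a1, Clec2h, Sdcbp2 and Dnah1, beside 9.26% of all tested genes, and 1, Akr1b7, was lower, beside 10.5%. Slc1a1 differed by 0.98 ± 0.34 (edgeR adjusted p = 0.313), Dnah1 by 1.61 ± 0.75, Sdcbp2 by 1.36 ± 0.69 and Tmprss4 by 1.18 ± 0.60. Gipc2, Smpd3 and Scn2a lay at 0.40, 0.39 and 0.08. The median over the 10 was 1.08 and that of all tested genes −0.01, and the choice of genes favours this direction. Clock scores were 3.11 to 3.69 in knockout males and 0.18 to 4.56 in the non-tumour livers, and their part in these differences was not tested.

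**Figure D4:**
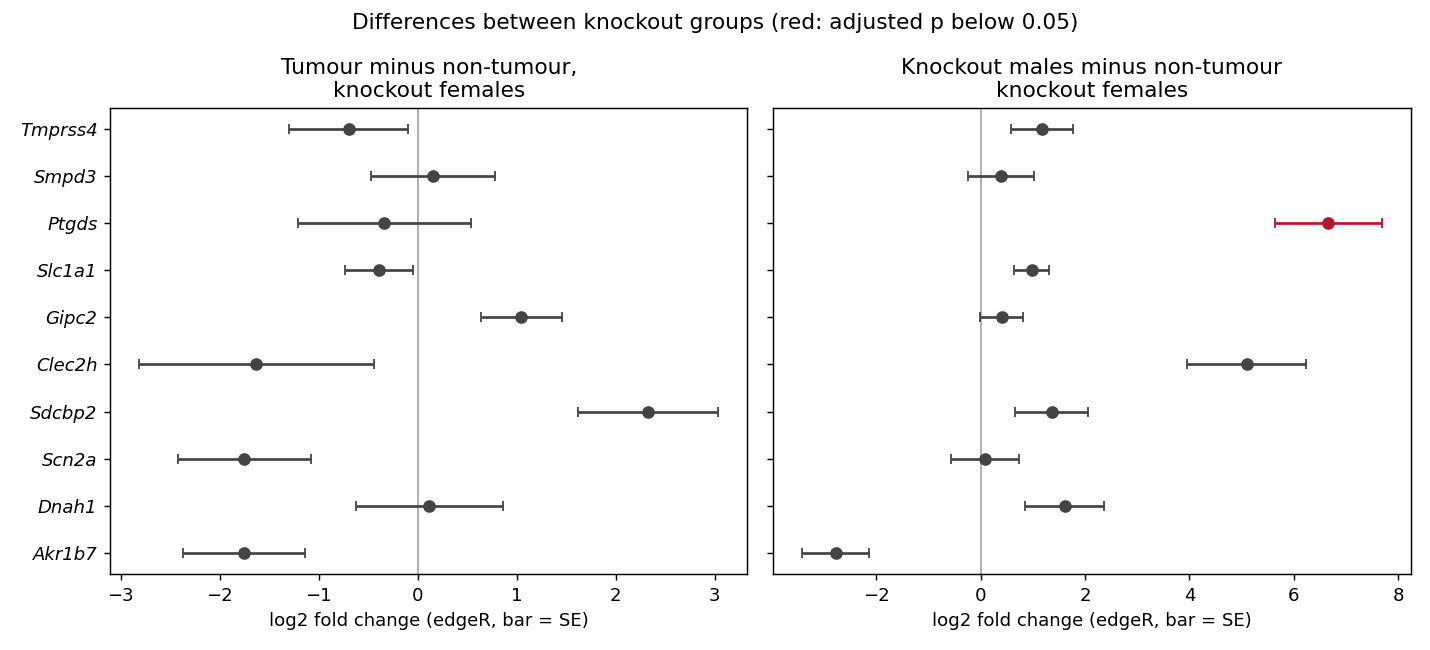
Fitted log2 fold change of each gene (points, horizontal axis) with its SE (bars) for tumour minus non-tumour liver of knockout females on the left and for knockout males minus non-tumour females on the right. Ptgds, in red at 6.66 on the right, is the 1 value with an edgeR adjusted p below 0.05. It was chosen chiefly for its counts in knockout males, so the call is no independent support for a difference.

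Relatives and pathway partners of the 10 genes were examined in 9 lists, with 102 of 135 listed genes tested. Non-tumour knockout females had 0 of these called higher and 2 lower than wild-type females, where edgeR called 4.16% of all genes (1.9% higher and 2.26% lower). At an unadjusted p under 0.05, 16 of the 102 were higher there and 4 lower. Tumours had 5 higher and 4 lower, where 9.61% of all genes were called (3.94% and 5.67%), and knockout males 19 higher and 4 lower than wild-type males, where 20.6% were (14.3% and 6.32%). The male groups also differed in clock score and low counts, as given above, and the part of either in the male calls was not tested. The female calls rest on both wild-type females: without number 3 they fell to 0 and 0 in non-tumour liver and to 0 and 1 in tumours. Without number 2 they were 0 and 2, and 1 and 2. With the wild-type males left out of the fit they were 4 and 2, and 13 and 7. Without the filter on low counts they were 11 and 2 in non-tumour liver and 14 and 6 in tumours, and with DESeq2 8 and 3, and 16 and 5. In males both alternatives gave 7 lower, with 22 and 20 higher.

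Among 7 tested membrane serine proteases, relatives of Tmprss4, none was called in either female comparison. The most abundant were Hpn (331 ± 23.5 CPM (SD, n = 3) in non-tumour knockout females) and Tmprss6. In males Corin rose by 5.86 ± 1.34 and St14 fell by 1.86 on the log2 scale. Among 23 sphingomyelin and ceramide genes, partners of Smpd3, the sphingosine kinase gene Sphk2 fell in non-tumour liver (−1.19 ± 0.26, edgeR adjusted p = 0.0243) and in tumours (−1.18 ± 0.26). In tumours Sptlc2, of ceramide synthesis, and the kinase gene Sphk1 rose (1.18 ± 0.26 and 2.05 ± 0.59) and Cers6 fell (−0.88 ± 0.26). In males 4 rose, among them the ceramide synthase genes Cers6 (1.56 ± 0.25) and Cers2 (1.15 ± 0.23) and the sphingomyelin synthase gene Sgms2 (1.55 ± 0.31), and 2 fell, Cers4 and Smpd4.

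Among 14 genes of prostaglandin synthesis and breakdown, partners of Ptgds, none was called in non-tumour liver. Log2 values of 12, 10 and 8 of them were above 0 in non-tumour liver, tumours and males, with medians of 0.82, 1.07 and 0.18. Cbr1, a carbonyl reductase, rose in tumours (1.499 ± 0.35) and in males (1.54 ± 0.31), and Ptges, a prostaglandin E synthase, rose in tumours (4.39 ± 1.25). In males the exporter gene Abcc4 (3.44 ± 0.60), the breakdown genes Hpgd (1.40 ± 0.34) and Ptgr2 (1.07 ± 0.29) rose too. Among 11 tested glutamate carriers and glutamine enzymes, partners of Slc1a1, none was called in females. In males the glutaminase gene Gls2 rose (1.87 ± 0.55) and the carrier gene Slc1a5 fell (−1.76 ± 0.51).

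Among 6 tested Clec2 lectins and Klrb1 receptors, Clec2d, the most abundant relative of Clec2h, fell in non-tumour liver (−1.93 ± 0.33, edgeR adjusted p = 0.00952) and in tumours (−2.59 ± 0.33). It rose in knockout males (1.201 ± 0.30, edgeR adjusted p = 0.0117). Its mean levels were 417, 109, 69.2, 100 and 230 CPM in wild-type females, non-tumour livers, tumours, wild-type males and knockout males. Of the 9 syntenin, GIPC and syndecan genes, the 10 tested dynein heavy chains and the 8 tested sodium channel genes, 1 was called in these 3 comparisons: Scn8a rose in tumours (2.62 ± 0.72). Log2 values of 6, 6 and 3 of the 8 sodium channel genes were above 0 in non-tumour liver, tumours and males. Their medians were 1.71, 2.04 and 0. The 13 listed summed to 8.96 to 10.9 CPM in wild-type females, 27.9 to 31.1 in non-tumour livers and 33.9 to 35.1 in tumours. In wild-type and knockout males they summed to 7.24 to 13.9 and 8.31 to 14.1 CPM. Of 14 tested aldo-keto reductases, 8 rose in males, among them Akr1d1, which acts in bile acid synthesis (4.20 ± 0.31), and Akr1c19 (3.91 ± 0.47). In females none was called in non-tumour liver, and Akr1c6 fell in tumours (−1.82 ± 0.43).

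Akr1b7 belongs to a list of FXR targets, and it is left out of the counts here because it was chosen on these comparisons. Of the 13 other tested targets, edgeR called 1 higher in each female comparison, Slc51b, a subunit of a basolateral bile acid carrier. Slc51b had 3 and 7 counts in wild-type females, 76, 179 and 293 in non-tumour livers, 56, 405 and 694 in tumours, 0 in wild-type males, and 335, 248 and 337 in knockout males. Without wild-type female 2 or 3 the count in each female comparison was 0. In males 4 rose, namely Slc51b, Pltp, Slc10a1 and Osgin1, where 14.3% of all tested genes were called higher and 6.32% lower. Nr1h4, which encodes FXR itself, fell (−0.94 ± 0.29, edgeR adjusted p = 0.0325). The list does not separate genes that FXR raises from genes that it lowers, so these counts are no measure of FXR activity. Among the other protein-coding genes, Cap2 and then Slc51b had the centred log2 levels over the 14 libraries closest to the mean of the 10. Their root-mean-square distances were 0.778 and 0.927. The 10 were chosen as low in wild type and high in knockout, so genes that rise in knockout lie close to this mean by construction. The next were Fndc10 (0.959), H2-Q1 (0.989) and Themis (1.04). Among the 10 genes the same distance ran from 0.362 for Slc1a1 to 2.23 for Ptgds. Of 20 tested NRF2 and glutathione genes, 12, 11 and 13 were called higher in non-tumour liver, tumours and knockout males, and 0 lower. Of 18 tested target enzymes of the receptors CAR and PXR, 4, 4 and 12 were higher and 0, 2 and 0 lower. Shares of all genes called higher were 1.9%, 3.94% and 14.3%. The higher calls in females fell when either wild-type female was left out. The part of either list in the values of the 10 genes was not tested.

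Markers of other cells were read beside these groups. Hepatocyte identity genes were high in every library, at 37079 to 123231 CPM summed. Cholangiocyte markers summed to 215 to 386 CPM in wild-type females, 541 to 672 in non-tumour livers and 776 to 1478 in tumours, and to 119 to 164 in wild-type and 117 to 424 in knockout males. Macrophage markers summed to 104 to 151 CPM in wild-type females, 329 to 494 in non-tumour livers and 419 to 450 in tumours. They summed to 140 to 600 CPM in wild-type and 206 to 315 CPM in knockout males. Both lists moved with the female comparisons. In non-tumour liver and tumours, 1 and 4 of 16 cholangiocyte and 5 and 6 of 16 macrophage markers were called higher, beside 1.9% and 3.94% of all genes. In tumours 1 cholangiocyte marker was called lower. Stellate cell and fibroblast markers had 14 of 16 values above 0 in each female comparison, with 0 called. Kupffer cell markers had 8 and 6 of 8 above 0. Of 13 endothelial markers 3 were called higher in tumours and 6 lower in knockout males. Kidney proximal tubule markers summed to at most 6.38 CPM, and of the 2 tested 1 was called higher in each of the 3 comparisons. Pancreatic acinar markers, with 0 of 2 tested called, summed to 1.83 to 3.31 CPM in wild-type females, 7.65 to 13.0 in non-tumour livers and 7.45 to 11.9 in tumours. In wild-type and knockout males they summed to 1.16 to 7.09 and 5.50 to 12.7 CPM. The part of these lists in the values of the 10 genes was not tested. The 22 intestinal epithelium markers summed to 283 to 337 CPM in wild-type females, 169 to 312 in non-tumour livers and 315 to 407 in tumours, and to 644 to 736 in wild-type and 273 to 276 in knockout males. Most of this was Lgals4, Cdhr5 and Fabp2. Of the 12 tested, 7, 10 and 8 had log2 values above 0 in non-tumour liver, tumours and knockout males against their wild types, with medians of 0.13, 1.30 and 1.34. Cdhr5, a cadherin of the brush border, rose in tumours and in males (1.12 and 0.98), and Lgals4 fell in males by 3.16 on the log2 scale. In non-tumour liver none was called. The transcription factor genes Cdx1, Cdx2 and Isx, and Sis and Reg3b, had 0 counts in every library. The part of this list in the values of the 10 genes was not tested. Of 13 neuron markers, Nefl, Nefm and Elavl4 had 0 counts throughout. The list summed to 7.61 to 10.5 CPM in wild-type females, 11.5 to 13.6 in non-tumour livers and 12.1 to 12.9 in tumours. In wild-type and knockout males it summed to 2.85 to 7.59 and 8.26 to 13.4 CPM. Of the 6 tested, 5, 3 and 5 had log2 values above 0 in non-tumour liver, tumours and knockout males, with 0 called. Of 14 markers of multiciliated cells Mcidas and Sntn had 0 counts throughout. The list summed to 22.36 to 22.39 CPM in wild-type females, 30.3 to 36.7 in non-tumour livers and 27.1 to 38.1 in tumours. In wild-type and knockout males it summed to 16.4 to 27.0 and 12.8 to 23.5 CPM. Of the 10 tested, 7 had log2 values above 0 in each comparison, with 0 called in females and 2 called lower in males. The part of these 2 lists in the values of the 10 genes was not tested.

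The nearest protein-coding gene on each side of the 10 genes gave 20 neighbours, of which 15 were tested. Fkbp1a, 10.9 kb from Sdcbp2, was called higher in non-tumour liver (1.47 ± 0.36) and in tumours (1.66 ± 0.36). Slc7a6os, 41.6 kb from Smpd3, fell in tumours. In males Paxx, 5.62 kb from Ptgds, rose by 1.93 on the log2 scale, and Plpp6 near Slc1a1 and Dnajb4 near Gipc2 rose by 1.07 and 0.85. The close neighbours Bap1, 0.431 kb from Dnah1, and Akr1b10, 15.4 kb from Akr1b7, were not called, and Snph, 0.544 kb from Sdcbp2 with at most 9 counts, was not tested. Within 10 Mb of Abcb11 the shares of called genes were 3.51%, 10.5% and 23.7% of 114 tested genes in the 3 comparisons above, beside 4.16%, 9.61% and 20.6% of all.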

How the data were processed

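RNA of 14 liver samples in 5 groups was sequenced in pairs of reads, per the labels. Per the submitters' processing notes, HISAT2 2.0.5 and featureCounts 1.5.0-p3 were used with GRCm38; the strand setting, annotation release and treatment of reads that match several genes are not given in the sources used here. The count columns are unscaled whole numbers of fragments per gene as deposited, and the authors' deposited FPKM are scaled to gene length and a library total. Overlapping and near-identical genes are therefore uncertain: of 75-base stretches of the longest transcript, 29.0% of Slc1a1, 33.4% of Gipc2 and 13.0% of Tmprss4 occur in a transcript of another gene, on the other strand for the most part, and at most 5.30% for the others.

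Counts were scaled by TMM, filtered (filterByExpr, 17874 genes) and tested in edgeR 4.0.16 (R 4.3.3, quasi-likelihood, 1 fit of all 14 libraries, 2-sided, Benjamini-Hochberg threshold 0.05). The SE of a log2 value was taken from its size and F (size over root F), so it is no measure apart from the test. Genes changed 4-fold in data simulated with 1 spread for all genes were recovered in 48% of cases between knockout males and females. False calls were 6.92% of the simulated calls in that comparison and 1.96% between tumour and non-tumour liver. Ratio intervals are exact binomial, at 95%. The genes named beside the 10 are called list genes (up to 4 by p), the most abundant list genes, neighbours, the 5 nearest patterns and near-zero genes. The genes and lists were chosen with earlier results of these data known. Tumour and non-tumour libraries of equal number correlated at 0.469, 0.383 and 0.311 over 9836 genes in their deviations from the group means. Their differences are therefore also given by number. The replicate block was fitted over all groups, not over these pairs alone. Alternatives were RLE scaling, no filter, DESeq2 1.42.0, the replicate number as a block, each library left out, and, chosen after seeing the data, a fit without wild-type males.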

Additional observations from a re-analysis of the deposited data

How the results depend on the processing

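Called genes numbered 743, 1718 and 3688 for non-tumour females, tumours and knockout males against their wild types, 0 between tumour and non-tumour liver and 70 between knockout males and non-tumour females. In that order, where a value moved by over 1.5 times, no filter gave 1739 (non-tumour), 338 (tumour against non-tumour) and 700 (males against females). DESeq2 gave 1885 (non-tumour), 2965 (tumours), 27 (tumour against non-tumour) and 457 (males against females). The fit without the 3 wild-type male libraries gave 1314 (non-tumour), 3018 (tumours) and 152 (males against females). With the replicate block, shared by the libraries of all groups, 480 genes were called for non-tumour females and 1 between tumour and non-tumour liver. In this replicate-block fit no call of the 10 genes changed between tumour and non-tumour liver. Between males and females, where libraries share only a number (same-numbered pairs correlated at −0.0413, 0.356 and 0.411), the replicate block called Clec2h (log2 5.84, adjusted p = 0.0170) and not Ptgds (6.58, adjusted p = 0.0872). With each library left out in turn the counts ran from 17 to 921 (non-tumour), 157 to 1378 (tumours), 2462 to 4055 (knockout against wild-type males), 0 to 42 (tumour against non-tumour) and 19 to 143 (males against females).

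Of the 10 genes, 0 were called between tumour and non-tumour liver and 1 between knockout males and females. Without a filter these were 3 (Sdcbp2, Akr1b7 and Clec2h) and 6. DESeq2 gave 3 between males and females, the fit without wild-type males 2 (Ptgds and Dnah1), and libraries left out 0 to 1. The signs that turned were those of values near 0 or with overlapping groups. Leaving out 1 library at a time, log2 values of tumour against non-tumour ran from −0.17 to 0.46 for Smpd3, −0.91 to 0.28 for Ptgds, −3.23 to 0.15 for Clec2h and −0.16 to 0.31 for Dnah1. Between males and females Scn2a ran from −0.12 to 0.26. In all of these the cause was not tested. Depth limits the wild-type female values, where 0 to 34 counts stand behind the ratios. Wild-type males 1, 2 and 3 had totals of 16210207, 14745140 and 19346354 counts, beside 14774037 to 19480538 in the other libraries. The reason for their zeros and low-count deficit was not tested.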
